A study of Homo sapiens with 10 samples.

Results

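IL6R, IL6ST, OSMR, LIFR and LIF encode receptor chains and 1 ligand of the interleukin-6 family, and the binding of 5 transcription factors around these genes was taken from 10 ChIP-seq peak lists. ChIP-seq sequences the DNA bound by a protein, and a peak is a stretch where the reads pile up over the local background. Peaks were assigned to a gene when their summit lay in a fixed window of hg19 coordinates: chr1:154350000-154460000 for IL6R, chr5:55200000-55320000 for IL6ST, chr5:38820000-38960000 for OSMR, chr5:38460000-38620000 for LIFR and chr22:30610000-30655000 for LIF. Of the 879550 peaks on chromosomes 1 to 22 and X, 423 lay in these windows, 156 of them around IL6R, 52 around IL6ST, 83 around OSMR, 96 around LIFR and 36 around LIF. Other genes lie near the members (RefSeq places OSMR-DT beside OSMR, LIFR-AS1 beside LIFR and OSM beside LIF), so a peak was not attributed to the gene it lies near. No hg19 gene annotation was used here, so which genes the windows hold was not determined and no site is called promoter, exonic or intronic.

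The cells were ER-Src, a line derived from the non-tumorigenic human breast epithelial line MCF-10A. Its v-Src oncoprotein is joined to the part of the estrogen receptor that binds ligand, so tamoxifen switches Src on and the cells transform. All groups carry this fusion, and the line is 1 engineered model. The transformed cells had received 1 μM 4-hydroxy-tamoxifen for 12 h and the non-transformed cells ethanol, and the library names in the lists give a longer time for ethanol than for tamoxifen. Antibodies were against FOS, JUN and JUNB (subunits of AP-1, a dimeric factor), NFKB1 (the p50 subunit of NF-κB) and STAT3. The study's antibody list names STAT3 phosphorylated on tyrosine. The study's own ChIP-seq covered YAP, TAZ, STAT3, JUNB and TEAD, aligned to another build than these lists. Whether the listed antibody was used for the STAT3 libraries here was not determined. Each of the 10 groups has 1 sample, so there is no replicate check of any difference between states and no test was possible. Intervals cover counting error or, for medians, the spread over peaks of the same libraries. Peaks are not replicates, and no interval covers differences between cultures.

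Cytokines of the IL-6 family signal through IL6ST (gp130), a receptor chain that most of them share. IL6R binds IL-6 and brings it to gp130, OSMR pairs with gp130 to bind oncostatin M, and LIFR pairs with gp130 to bind LIF and related ligands. Janus kinases bound to these chains phosphorylate STAT3, which then enters the nucleus, while NF-κB and AP-1 are activated by other inflammatory and growth signals. In breast epithelial cells the family is known for its place in inflammatory signalling.

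Sequence is available here only for the start regions of the members in RefSeq (GRCh38.p14, 250 bases before to 50 after each gene's start), and 4 of the 5 members have an entry. These coordinates belong to another build than the peaks and were not placed on them. The motifs searched, on both strands, were TGANTCA for AP-1, TTCNNNGAA for STAT and the NF-κB consensus, and an AP-1 or STAT match reads as one on both strands. A match was found in 7.71%, 7.66% and 11.3%, respectively, of all 35116 start regions. The stretches below are shown because each holds a member's match, with its letters in capitals, 5′ to 3′ on the gene's strand. They cover chr1:154405363-154405392 (+) for IL6R, chr5:55994964-55995213 (−) for IL6ST, chr5:38845762-38846021 (+) for OSMR and chr5:38595551-38595580 (−) for LIFR.
IL6R, AP-1 match: aggaccgtccgccgctcTGAGTCAtgtgcg
IL6ST, NF-κB match on the opposite strand: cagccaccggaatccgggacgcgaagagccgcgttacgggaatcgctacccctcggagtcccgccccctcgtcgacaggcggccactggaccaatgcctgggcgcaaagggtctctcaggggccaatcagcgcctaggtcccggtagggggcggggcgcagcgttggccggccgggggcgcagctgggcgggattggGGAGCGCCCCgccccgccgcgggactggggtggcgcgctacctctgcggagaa
OSMR, AP-1 match: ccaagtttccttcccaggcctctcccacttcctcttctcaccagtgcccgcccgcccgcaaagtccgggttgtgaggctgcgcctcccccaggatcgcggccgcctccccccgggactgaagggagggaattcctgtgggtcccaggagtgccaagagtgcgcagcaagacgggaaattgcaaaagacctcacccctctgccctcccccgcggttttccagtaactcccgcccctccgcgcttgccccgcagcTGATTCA
LIFR, STAT match: ccattactagTTCCTTGAAccacaatccaa
The IL6R and OSMR matches begin at bases 38 and 4 after the start, and the IL6ST and LIFR matches begin 53 and 165 bases before it. LIFR has 3 start regions, of which a further 1 holds a STAT match, 182 bases before its start. A match describes the letters only and is not a bound site.

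The libraries held 4837474 to 22082403 reads after the filter for duplicate positions. Pileup, the number of extended reads stacked at a summit, was therefore also given per 1000000 of these filtered reads (RPM). The NFKB1 library of transformed cells had 2.0 times the reads of its partner, the JUNB library 1.72 times and the STAT3 library 0.821 times. In non-transformed cells the filter kept 50.1% of the JUNB reads and 53.3% of the STAT3 reads. In transformed cells it kept 68.9% and 77.1%. The part of this difference in the comparisons of states was not tested. A stretch without a listed peak was below the threshold of the peak caller in that library, which does not show that the protein was absent.

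Each protein had more peaks around the members in transformed cells. FOS, a partner of the JUN proteins in AP-1, had 44 peaks in non-transformed and 70 in transformed cells, a ratio of 1.59 (95% interval 1.08 to 2.38) against 1.37 over its whole lists. For JUN the numbers were 41 and 61, with a ratio of 1.49 (0.985 to 2.27) against 1.56. JUNB went from 33 to 46 peaks, which gives 1.39 (0.872 to 2.25) against 1.34, beside 1.72 times the reads. Around the receptors and LIF the AP-1 subunits thus differed between states by about as much as elsewhere, and the intervals of JUN and JUNB include 1. NFKB1 had 10 and 44 peaks, a ratio of 4.40 (2.18 to 9.81) against 5.57 over its lists, beside the difference in depth given above. STAT3, the factor phosphorylated downstream of these receptors, had 22 and 52 peaks, a ratio of 2.36 (1.41 to 4.09) against 1.87. The ratio of each protein's whole lists lies inside the interval for the windows. Among peaks of at least 2 RPM the ratio was 5.50 for JUN (2 and 11 peaks, whole lists 3.53), 5.00 for STAT3 (4 and 20, whole lists 4.02) and 1.2 for NFKB1 (5 and 6, whole lists 1.92). It was 1.64 for FOS (11 and 18, whole lists 0.969) and 1.89 for JUNB (9 and 17, whole lists 1.14).

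**Figure D1:**
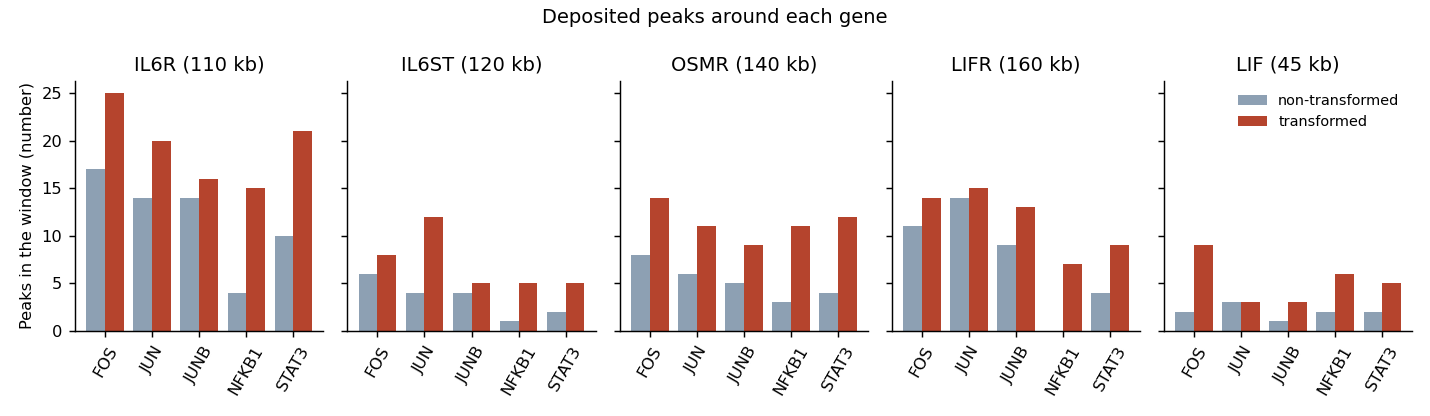
Bars give the number of deposited peaks (vertical axis) of each protein in the window of each gene, in non-transformed (grey-blue) and transformed (red) cells, with 1 library per bar. The windows differ in length (45 to 160 kb), the IL6R window has the most peaks of every protein in both states except for JUN in non-transformed cells, where LIFR also has 14, and LIFR has no NFKB1 peak in non-transformed cells.

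Peaks found in 1 state alone were counted by asking whether the other state's list of the same protein had a summit within 300 bp. Of the peaks of transformed cells, 28 of 70 for FOS (40.0%) had no counterpart in non-transformed cells, against 39.3% of the whole list. The shares were 27 of 61 for JUN (44.3%, whole list 49.3%), 14 of 46 for JUNB (30.4%, whole list 44.8%), 34 of 44 for NFKB1 (77.3%, whole list 83.8%) and 30 of 52 for STAT3 (57.7%, whole list 61.6%). Peaks around the members were thus new in transformed cells about as often as in the lists at large, with JUNB furthest below its list. Of the 34 NFKB1 peaks, 28 were lower than 1.45 RPM, which is 7 reads and the lowest value listed for NFKB1 in these windows in the shallower library of non-transformed cells. The same held for 11 of 28 FOS peaks (below 0.430 RPM), 5 of 14 JUNB peaks (below 0.545) and 1 of 27 JUN peaks (below 0.378). All 30 STAT3 peaks reached the lowest value listed in non-transformed cells, 0.549 RPM. For STAT3 this could not have come out otherwise. The lowest STAT3 peak listed in these windows in the shallower library of transformed cells, 5 reads, was already 0.558 RPM.

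The opposite case was rare around the members. Of the peaks of non-transformed cells, 2 of 44 for FOS (4.55%) lacked a counterpart in transformed cells, where the whole list has 17.0%. JUN had 6 of 41 (14.6%, whole list 21.0%), JUNB 1 of 33 (3.03%, whole list 25.6%), NFKB1 0 of 10 (whole list 10.7%) and STAT3 0 of 22 (whole list 29.1%). No STAT3 or NFKB1 peak of non-transformed cells was missing in transformed cells in any of the 5 windows. All 9 peaks of this kind were weak, with 6 to 11 reads, and their highest fold enrichment over background was 6.26. That value was reached by a FOS peak of 11 reads in the LIFR window at chr5:38551531-38551903 and by a JUN peak of 10 reads in the LIF window at chr22:30651867-30652167. The best such peaks were a JUN peak of 6 reads at chr1:154458242-154458542 for IL6R and a JUNB peak of 6 reads at chr5:55247404-55247704 for IL6ST, and OSMR had none. Peaks of non-transformed cells were mostly stronger in the windows than in the lists. Median RPM was 1.45 against 0.859 for FOS, 1.53 against 1.09 for JUNB and 1.86 against 1.65 for NFKB1. The STAT3 median was also above the 0.915 of its list, and JUN had 0.694 in both. Whether this difference in strength accounts for the lower shares was not tested.

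Peaks listed in both states were compared by their pileup. Over 22 common STAT3 peaks, the median ratio of transformed to non-transformed pileup RPM was 1.82 (1.34 to 2.23), with a range of 0.609 to 4.69 and 19 of 22 above 1. All 30098 common STAT3 peaks of the lists had a median of 1.69, so the members were near the level of the whole list. The share of those list peaks above 1 is not given here, so the 19 of 22 has no baseline. JUN had a median of 1.44 (1.16 to 1.86) over 34 common peaks, against 1.29 over its lists. FOS, JUNB and NFKB1 had medians of 1.08 (0.899 to 1.26), 1.21 (0.826 to 1.44) and 1.00 (0.816 to 1.79) over 42, 32 and 10 common peaks (whole lists 0.949, 0.964 and 1.03), and each interval includes 1. Without scaling by depth the medians of JUNB, NFKB1, JUN and STAT3 were 2.08, 2.0, 1.67 and 1.49, fold enrichment in place of pileup gave 1.56 for NFKB1, and scaling by the median of all common peaks gave 1.08 for STAT3 beside 1.26 for JUNB, 1.14 for FOS and 1.11 for JUN. STAT3 thus had the highest median with scaling by depth and by fold enrichment (1.62), but not without scaling or when scaled by the common peaks. Peaks at least 2-fold higher in transformed cells numbered 8 of 22 for STAT3 (36.4%, all common peaks 38.8%), 6 of 34 for JUN (17.6%, 14.8%), 4 of 42 for FOS (9.52%, 8.55%), 3 of 32 for JUNB (9.38%, 7.81%) and 1 of 10 for NFKB1 (10.0%, 9.30%). These shares are close to those of the lists.

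**Figure D2:**
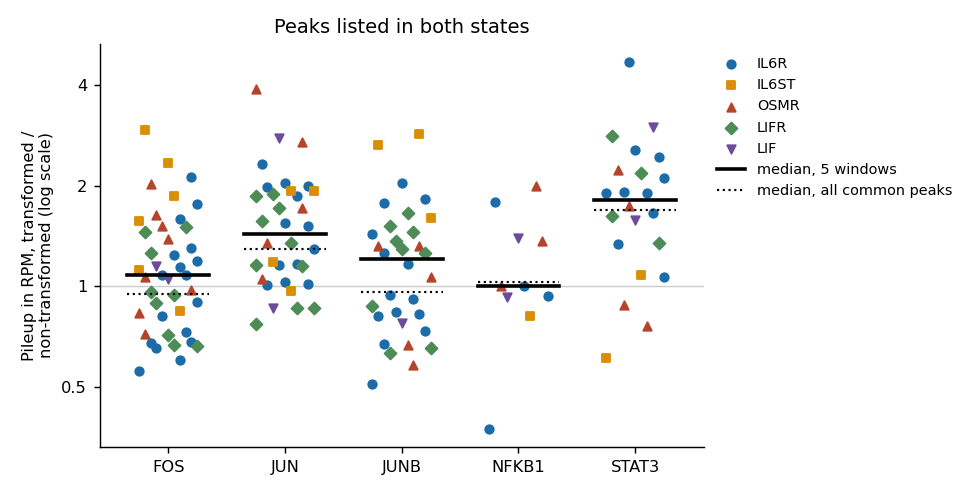
Each point is a peak listed in both states, with its pileup RPM in transformed over non-transformed cells on a log axis, by protein and, in colour and shape, by gene. Solid bars are medians over the 5 windows and dotted bars medians over all common peaks of the lists, and for STAT3 both stand well above 1 (1.82 and 1.69).

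The 423 peaks were joined into 97 sites, each a run of overlapping summit windows (150 bp on each side) over the 10 lists. In non-transformed cells 61 sites had a peak of any protein, and 5 of them (8.20%) had all 5 proteins, against 3.68% of the sites of the whole lists. In transformed cells 91 sites had a peak and 27 (29.7%) had all 5, against 17.4%. These 27 sites lay 12 around IL6R, 7 around OSMR, 5 around LIFR, 2 around LIF and 1 around IL6ST, and the 5 sites of non-transformed cells, 2 around IL6R and 3 around OSMR, were all among them. Leaving out NFKB1, whose list of non-transformed cells is the shortest, the other 4 proteins shared 14 sites in non-transformed (23%, whole lists 12.1%) and 34 in transformed cells (37.4%, whole lists 22.8%). Under a stricter threshold (the median −log10 q of all peaks, 9.41) 1 and 9 sites of all 5 proteins were left (2.33% and 15.8%, whole lists 1.54% and 12.8%), nearer to the lists.

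**Figure D3:**
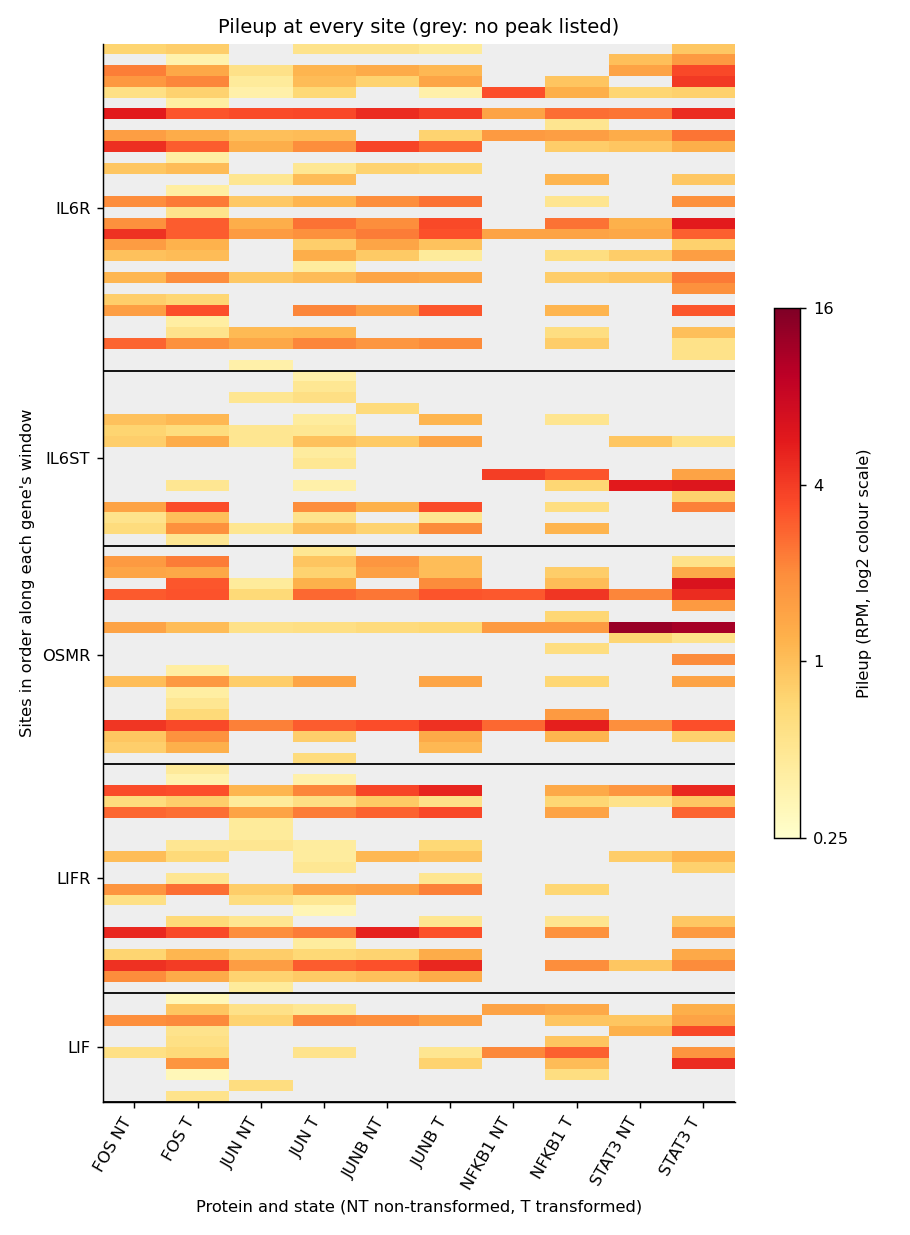
Each row is 1 of the 97 sites, in order along the window of its gene, and each column is a protein in non-transformed (NT) or transformed (T) cells. Colour gives the pileup RPM on a log2 scale, grey means that no peak was listed, and the darkest cells are those of STAT3 at 1 OSMR site (12.9 and 11.4).

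Most STAT3 sites also held AP-1. In transformed cells 43 of 50 STAT3 sites (86.0%) had a peak of FOS, JUN or JUNB and 7 had none, against 88.1% over the whole lists. In non-transformed cells 18 of 22 (81.8%) had one, against 80.8%. A site can hold more than 1 peak, and of 28 sites where STAT3 was listed in transformed cells alone, 20 (71.4%, whole lists 62.7%) already had AP-1 in non-transformed cells. Of 33 such sites for NFKB1, 25 (75.8%, whole lists 73.6%) already had AP-1. The shares near the members were thus close to those of the lists. Around LIFR and LIF, every STAT3 site of transformed cells (9 and 5) had an AP-1 subunit, and the 7 without were 3 around OSMR, 2 around IL6R and 2 around IL6ST.

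IL6R, the receptor chain for IL-6, had the most peaks, 156 in 110 kb. The FOS, JUN, JUNB, NFKB1 and STAT3 lists held 17, 14, 14, 4 and 10 peaks in its window in non-transformed cells. In transformed cells they held 25, 20, 16, 15 and 21. Of its 2 sites in all 10 lists, chr1:154390711-154391205 had the larger summed −log10 q, and it was the strongest of the window in 7 lists. FOS gave 106 reads (5.69 RPM) there in non-transformed and 70 (3.17) in transformed cells, a ratio of 0.557 (0.406 to 0.760). JUN was alike in both states with 3.47 and 3.58 RPM, and JUNB gave 4.68 and 3.94. STAT3 gave 27 and 42 reads (2.47 and 4.68 RPM), a ratio of 1.90 (1.14 to 3.2), and NFKB1 7 and 25 reads (1.45 and 2.58). The summits compared between states at this IL6R site were 172 bp apart for FOS and 111 bp for STAT3, so they may not be the same summit, and neither pair counts as common with windows of 50 bp on each side. At the other site in all 10 lists, chr1:154405677-154406048, FOS had 82 and 66 reads, a ratio of 0.679 (0.483 to 0.950). STAT3 had 15 and 26 there, a ratio of 2.11 (1.08 to 4.29). Over the 17 common FOS peaks of the window the interval lay below 1 at 4 and above 1 at 3.

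The strongest STAT3 difference of all common peaks was also near IL6R. At chr1:154404037-154404517 STAT3 had 13 reads (1.19 RPM) in non-transformed and 50 (5.58) in transformed cells, a ratio of 4.69 (2.51 to 9.41). The AP-1 subunits were higher there as well. FOS went from 35 to 66 reads (1.88 to 2.99 RPM), JUN from 20 to 46 (1.26 to 2.49) and JUNB from 18 to 55 (1.96 to 3.49), and NFKB1 was listed in transformed cells alone with 24 reads (2.48). The intervals of the 3 AP-1 ratios, 1.04 to 2.47, 1.15 to 3.53 and 1.03 to 3.22, exclude 1 by a small margin. The 10 common STAT3 peaks of the IL6R window had ratios of 1.07 to 4.69 with a median of 1.91 (1.34 to 2.56), and the intervals of 5 of them exclude 1. The pair with the ratio of 1.07 had summits 166 bp apart, so these may not be the same summit.

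Among the STAT3 peaks near IL6R that were found in transformed cells alone, the one with the highest fold enrichment (25.1) lay at chr1:154378381-154379398, with 37 reads (4.13 RPM). AP-1 was already there in non-transformed cells, with FOS at 32 reads (1.72 RPM), JUN at 7 and JUNB at 7, and these were 47, 19 and 22 in transformed cells. The JUN summits of the states were 228 bp apart and may not be the same summit. Within the IL6R window the highest FOS value of transformed cells, 3.31 RPM (73 reads, from 29), stood at chr1:154449259-154449601, where JUN, NFKB1 and STAT3 were listed in transformed cells alone with 39, 11 and 28 reads. The 4 common NFKB1 peaks near IL6R had ratios of 0.375 to 1.79, with a median of 0.969. At chr1:154379975-154380498 NFKB1 had 16 reads (3.31 RPM), its highest value near IL6R in non-transformed cells, and 12 reads (1.24) in transformed cells. The ratio there was 0.375 (0.162 to 0.845). Over the 12 IL6R sites of all 5 proteins in transformed cells, STAT3 ranged from 0.558 to 5.58 and NFKB1 from 0.517 to 2.58 RPM.

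IL6ST, the shared chain gp130, had 1 site of all 5 proteins in transformed cells, the fewest of the members. In its window FOS, JUN, JUNB, NFKB1 and STAT3 had 6, 4, 4, 1 and 2 peaks in non-transformed and 8, 12, 5, 5 and 5 in transformed cells. Its main STAT3 site, chr5:55290810-55291181, had 62 reads (5.67 RPM, 4.35 to 7.27) in non-transformed and 55 (6.13, 4.62 to 7.98) in transformed cells, so the values of the 2 states overlap, with a ratio of 1.08. STAT3 was alone there in non-transformed cells, and FOS, JUN and NFKB1 were listed in transformed cells with 11, 7 and 7 reads. This peak was in the top 1.17% of the STAT3 list of non-transformed cells. Close by, chr5:55290321-55290647 held the strongest NFKB1 peak of any member in non-transformed cells, 19 reads (3.93 RPM), and 31 reads (3.2) in transformed cells, where STAT3 was listed with 13 reads. No AP-1 subunit was listed at that NFKB1 site in either state.

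AP-1 at IL6ST stood elsewhere. At chr5:55293563-55293892, the only IL6ST site with all 5 proteins, FOS had 27 reads (1.45 RPM) in non-transformed and 75 (3.40) in transformed cells, a ratio of 2.34 (1.49 to 3.78). JUNB had 11 and 54 reads (1.2 and 3.43 RPM), a ratio of 2.86 (1.48 to 6.07). JUN, NFKB1 and STAT3 were listed there in transformed cells alone, with 36, 6 and 20 reads (1.95, 0.620 and 2.23 RPM). Another site, chr5:55307675-55308035, showed the same direction for FOS (12 and 42 reads, ratio 2.95, 1.53 to 6.16) and JUNB (7 and 32 reads, ratio 2.66, 1.15 to 7.15), without STAT3. It was singled out after its values were seen. The site in most lists, 8, was chr5:55273849-55274263, where FOS had 15 and 28 reads and STAT3 10 and 5. In the IL6ST window JUN was weak in non-transformed cells, where each of its 4 peaks had 8 reads (0.505 RPM).

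OSMR, the oncostatin M receptor chain, held the strongest STAT3 peak of the 5 windows. At chr5:38845688-38846302 STAT3 had 141 reads (12.9 RPM, 10.9 to 15.2) in non-transformed and 102 (11.4, 9.27 to 13.8) in transformed cells. The values of the 2 states overlap, and the peak was in the top 0.0374% and 0.226% of the STAT3 lists. The other proteins were well below STAT3 in reads there. FOS had 27 and 23 reads (1.45 and 1.04 RPM), which are its median values over the 5 windows, and NFKB1 had 8 and 16 (1.65 in both states, against medians of 1.86 and 1.03). JUN had 9 and 11 reads (0.568 and 0.596 RPM) and JUNB 6 and 11 (0.654 and 0.698), and these were below their medians over the windows.

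AP-1 around OSMR was highest at chr5:38872176-38872706, which was in all 10 lists. FOS had 79 and 78 reads (4.24 and 3.53 RPM), JUN 35 and 55 (2.21 and 2.98), JUNB 31 and 70 (3.38 and 4.44) and STAT3 21 and 30 (1.92 and 3.35). The JUN summits compared between states were 216 bp apart, so they may not be the same summit. NFKB1 had 13 and 52 reads there, 2.69 and 5.38 RPM, a ratio of 2.0 (1.07 to 4.00), and this was its highest value near any member. The third OSMR site in all 10 lists, chr5:38830543-38831524, had the window's largest STAT3 ratio, 2.23 (1.31 to 3.88), with 23 and 42 reads. JUN had 11 and 50 reads there, a ratio of 3.90 (2.01 to 8.32), the largest JUN ratio in the 5 windows, while FOS had 56 and 71 (3.01 and 3.22 RPM) and NFKB1 15 and 41.

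The strongest STAT3 peak found in transformed cells alone, over all members, was near OSMR too. At chr5:38827627-38827941 STAT3 had 57 reads (6.36 RPM, 4.81 to 8.24) and a fold enrichment of 36.5, in the top 4.06% of its list. FOS (69 reads, 3.12 RPM), JUNB (32, 2.03) and NFKB1 (10, 1.03) were also listed there in transformed cells alone. JUN was the 1 protein with a peak in both states, with 7 and 22 reads, a ratio of 2.70 (1.11 to 7.48). Over the 7 OSMR sites with all 5 proteins in transformed cells, STAT3 ranged from 0.781 to 11.4 and NFKB1 from 0.724 to 5.38 RPM.

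**Figure D4:**
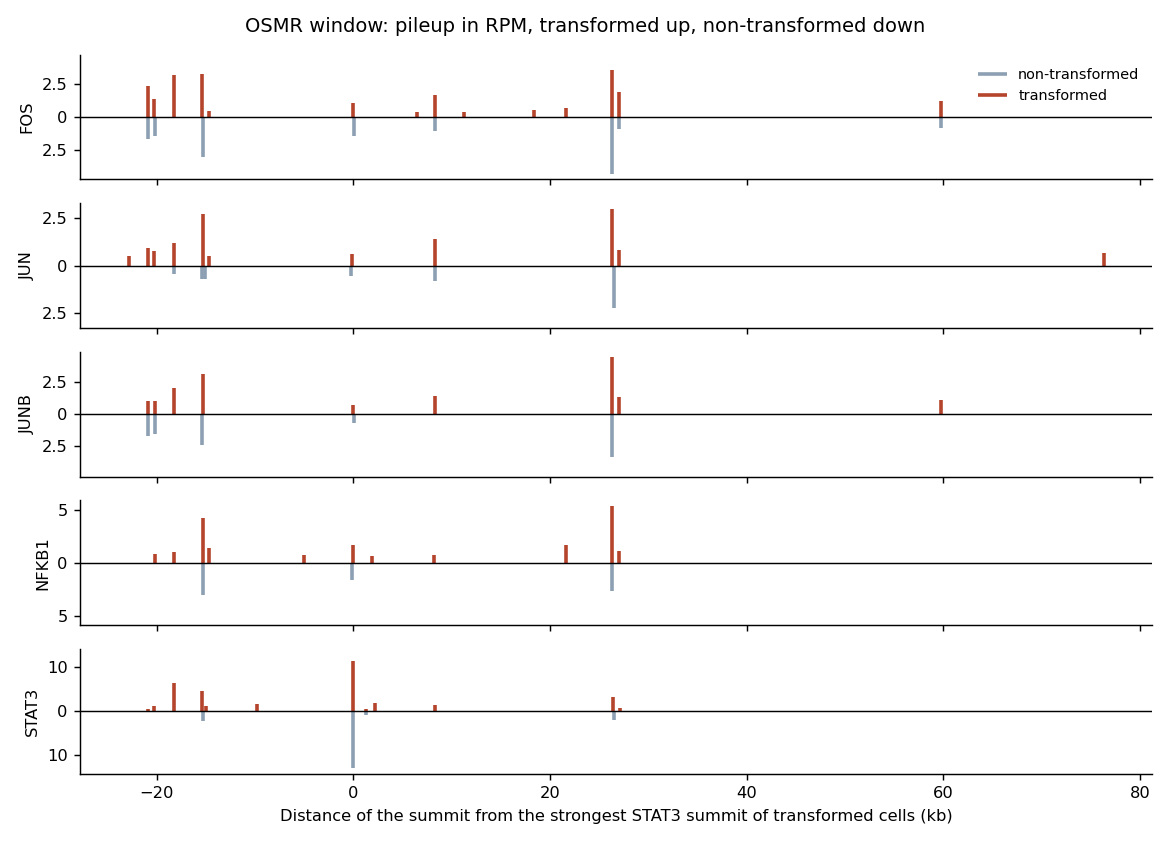
Each line is a peak in the OSMR window, drawn at its distance in kb from the strongest STAT3 summit of transformed cells, with the pileup RPM upward for transformed and downward for non-transformed cells. STAT3 peaks highest at distance 0 (11.4 and 12.9) while each of the other proteins has its highest peak of either state at another site.

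LIFR, the LIF receptor chain, had 5 sites of all 5 proteins in transformed cells and no NFKB1 peak in non-transformed cells. FOS, JUN, JUNB, NFKB1 and STAT3 had 11, 14, 9, 0 and 4 peaks in non-transformed and 14, 15, 13, 7 and 9 in transformed cells. In non-transformed cells AP-1 was strongest at chr5:38599081-38599418, where FOS had 91 reads (4.89 RPM), JUN 31 (1.96) and JUNB 48 (5.23). Transformed cells had 77 (3.49), 42 (2.28) and 52 (3.30) reads there, with ratios of 0.713 (0.520 to 0.977) for FOS and 0.631 (0.418 to 0.955) for JUNB, so both were lower. NFKB1 and STAT3 were listed there in transformed cells alone, with 18 and 15 reads.

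In transformed cells the strongest FOS, JUN and NFKB1 peaks of the LIFR window stood at chr5:38601934-38602415, which was in 9 lists. FOS had 83 and 88 reads (4.46 and 3.99 RPM), JUN 25 and 55 (1.58 and 2.98), JUNB 30 and 78 (3.27 and 4.95) and STAT3 10 and 18 (0.915 and 2.01), and NFKB1 had 19 in transformed cells alone (1.96). The STAT3 summits compared between states were 173 bp apart here, so they may not be the same summit. STAT3 was highest at chr5:38464274-38464658, with 19 reads (1.74 RPM) in non-transformed and 44 (4.91) in transformed cells, a ratio of 2.82 (1.61 to 5.12). FOS was alike there in both states (3.44 and 3.31 RPM), JUN had 18 and 39 reads, JUNB 34 and 80, and NFKB1 13 in transformed cells alone. The 4 common STAT3 peaks near LIFR had ratios of 1.35 to 2.82, and the interval excludes 1 only at chr5:38464274-38464658.

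The remaining LIFR sites of all 5 proteins in transformed cells were chr5:38468325-38468671 and chr5:38466387-38466874. The first held the LIFR window's best STAT3 peak of transformed cells alone, with 25 reads (2.79 RPM) and a fold enrichment of 17.4, beside FOS at 51 and 57 reads, JUN at 23 and 42, JUNB at 26 and 56 and NFKB1 at 14 in transformed cells. At the second the values were low, with STAT3 at 6 and 8 reads and FOS at 12 and 18.

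LIF, the 1 ligand among the members, had 10 sites in a window of 45 kb. FOS, JUN, JUNB, NFKB1 and STAT3 had 2, 3, 1, 2 and 2 peaks in non-transformed and 9, 3, 3, 6 and 5 in transformed cells. At chr22:30647692-30648026 no protein had a peak in non-transformed cells. In transformed cells STAT3 had 42 reads there (4.68 RPM, 3.38 to 6.33) and a fold enrichment of 30.8, FOS 39 (1.77), JUNB 12 (0.762) and NFKB1 10 (1.03), and JUN had no listed peak. At chr22:30631637-30631962 STAT3 had 13 and 32 reads (1.19 and 3.57 RPM), a ratio of 3.0 (1.53 to 6.23), with FOS at 12 reads in transformed cells as the only other protein.

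AP-1 near LIF was highest at chr22:30624589-30624955, in 9 lists. FOS had 36 and 45 reads (1.93 and 2.04 RPM), JUN 12 and 39 (0.757 and 2.11, ratio 2.79, 1.43 to 5.86), JUNB 18 and 24 (1.96 and 1.52) and STAT3 10 and 13. NFKB1 was listed there in transformed cells alone, with 9 reads. The highest NFKB1 values of the LIF window lay at chr22:30646715-30647110, its other site of all 5 proteins, with 10 and 28 reads (2.07 and 2.89 RPM), where STAT3 had 16 reads in transformed cells alone and FOS 11 and 15.

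By gene, the common STAT3 peaks are few. The ratios were above 1 at all 10 peaks of IL6R, all 4 of LIFR and both of LIF, at 2 of 4 near OSMR and at 1 of 2 near IL6ST. Their counting intervals lay above 1 at 5 peaks of IL6R and at 1 each of OSMR, LIFR and LIF, and at none was the interval below 1. The same counts over all 30098 common STAT3 peaks are not given here. The median ratio of those peaks was 1.69, so ratios above 1 are not particular to these genes. Pairs whose summits may not be the same, as given above, are counted here too. The highest STAT3 peaks of OSMR and IL6ST, at 12.9 and 5.67 RPM in non-transformed cells, had ratios of 0.882 and 1.08. A difference between genes was not tested.

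**Figure D5:**
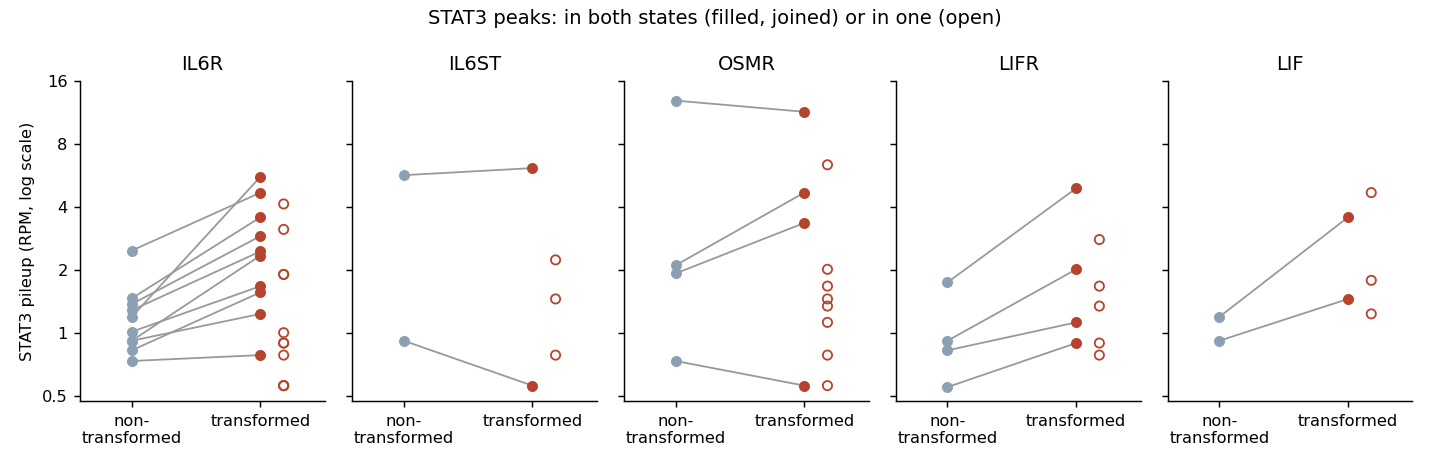
STAT3 pileup RPM (log axis) of every STAT3 peak in each gene's window, with peaks of both states filled and joined by a line and peaks of 1 state open. The highest peak of OSMR (12.9 and 11.4) and of IL6ST (5.67 and 6.13) are nearly level, and the joined lines of IL6R, LIFR and LIF point upward, with a counting interval above 1 at 5 of 10, 1 of 4 and 1 of 2 peaks. Such counts are not given for the whole lists.

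Sites were joined from summit windows of 150 bp on each side, so summits of different proteins at a shared site lie close together by construction. Distances are therefore given beside those over the lists. In transformed cells STAT3 summits lay a median of 18 bp (7 to 39.0, 43 pairs) from FOS summits, against 25.0 bp over the lists. In non-transformed cells it was 48.0 bp (24.0 to 102, 18 pairs), against 38.0 bp. FOS and JUNB summits were 15.5 bp (9 to 24.0, 32 pairs) apart in non-transformed and 18 bp (14 to 24.0, 45 pairs) in transformed cells. The lists had 17.0 bp in both states. The STAT3 fragment length estimated by the peak caller was 150 bp in non-transformed and 119 bp in transformed cells, and its part in the distances was not tested.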

How the data were processed

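ChIP-seq peak lists of 5 proteins in non-transformed and transformed ER-Src cells were used as deposited, 1 per protein and state. Per the labels, the authors aligned reads with Bowtie to hg19. Per the file headers they called peaks with MACS 2.0.10.20131216 in each sample, without a control library, from 36 bp reads with at most 1 read per position, a q-value cutoff of 0.05, an effective genome of 2700000000 bp and a local background of 1000000 bp. The deposited pileup is a signal that counts extended reads at the summit and is not scaled by depth. The deposited fold enrichment is a ratio to the local background, and the deposited significance is −log10 of the p-value and q-value. The deposited positions are 1-based.

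Pileup was divided by the reads left after the filter, 4837474 to 22082403 per library, and given per 1000000 of them (RPM). Summits of the same protein within 300 bp were common to both states (mutual nearest summits for ratios), and sites were joined summit windows of 150 bp on each side with an overlap of at least 1 bp. Intervals are 95%: exact Poisson for pileup, exact binomial for ratios and shares, and order statistics for medians. They cover counting error, or the spread over sites, and never differences between cultures. Counts over the 5 windows of 575 kb were set beside the same counts over the whole lists, except counts of ratios above 1 and of intervals that exclude 1. Sites were named by rule: the site in most lists, the highest peak per protein and state, the largest STAT3 ratio, the best STAT3 peak of transformed cells alone, the best peak lost and the sites of all 5 proteins. Members, windows and rules were chosen with earlier results of these data known. A list of other pathway genes was not analysed here, since no hg19 annotation was used. Python 3.11.15, numpy 2.4.6, pandas 2.3.3 and scipy 1.17.1 were used, and the overlap code was tested on 3 simulated sets of 5000 sites.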

Additional observations from a re-analysis of the deposited data

How the results depend on the processing

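Of 46 values under other settings, 34 stayed inside the main interval or within 1.5 times the main count, and none reversed a called direction. A direction was called only where the main interval excludes 1. The 34 include the merging of summits within 150 bp, which left the peak numbers of every protein unchanged and so tested nothing. With peaks of at least 2 RPM alone, the ratio of peak numbers was 5.50 for JUN (2 and 11 peaks), 1.2 for NFKB1 (5 and 6) and 5.00 for STAT3 (4 and 20). Without scaling by depth, the median ratio at common peaks was 1.28 for FOS, 2.08 for JUNB and 2.0 for NFKB1. Fold enrichment in place of pileup gave 1.56 for JUNB. Scaled by the median of all common peaks, the ratio was 1.11 for JUN and 1.08 for STAT3, so the members stood near the lists. Sites of all 5 proteins numbered 3 in non-transformed cells with windows of 50 bp, and 1 and 9 in the 2 states under the stricter threshold (−log10 q of at least 9.41), against 5 and 27.

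Added after seeing the data, leaving out the NFKB1 lists gave 14 sites of the other 4 proteins in non-transformed and 34 in transformed cells. Among peaks of at least 2 RPM, the share found in transformed cells alone was 35% for STAT3 (7 of 20 peaks, whole list 31.4%). It was 16.7% for NFKB1 (1 of 6, whole list 36.1%) and 5.56% for FOS (1 of 18, 1.77%). JUN had 9.09% (1 of 11, 2.06%) and JUNB 5.88% (1 of 17, 4.39%). Apart from STAT3 each share rests on 1 peak and cannot be told from that of its list. Most peaks found in transformed cells alone were thus low ones. No paired analysis was possible because each group has 1 sample, and no replicate could be left out.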
